A study of Mus musculus with 53 samples.

Results

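Mouse embryonic stem (ES) cells without a working Eed gene were compared with wild-type (WT) ES cells at day 6 after withdrawal of leukaemia inhibitory factor (LIF), the cytokine that holds mouse ES cells in culture in an undifferentiated state. The 7 arrays whose labels give these genotypes and this day, 2 Eed-null and 5 WT, were chosen from the 53 arrays of a series on mouse ES cells and cells derived from them. Gene expression was measured in total RNA on oligonucleotide arrays. The 5 Ezh2-null arrays of day 6, and the Eed-null and WT arrays of day 0 (5 and 7) and day 2 (2 and 4), served for further comparisons. All of these ES cells had been grown on feeder cells, which were depleted by a short plating step. No cell line is named for the Eed-null or the Ezh2-null cells, whereas WT replicates 1 to 3 of day 6 came from the line J1 and replicates 4 and 5 from the line CJ7. Genotype and cell line therefore cannot be told apart. Replicates are called biological without a statement of what was repeated, so a p-value measures only a spread between arrays. That spread was pooled over all 15 groups of the series, and it need not match the spread of the 7 arrays compared.

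Eed belongs to the core of PRC2, the Polycomb complex that adds methyl groups to a lysine in the tail of histone H3 and keeps many developmental genes at a low level. Eed binds this mark and is needed for the activity of the complex with either of its enzymes, Ezh2 or Ezh1, and Suz12 is the other core subunit. In ES cells the complex is known to occupy CpG-rich promoters of lineage regulators. Once LIF is withdrawn, WT cells lose the genes of the naive pluripotent state and begin to express genes of the germ layers.

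Values are array signals, the processed intensity on a linear scale that the authors deposited, and the median signal of the 7 arrays lay between 55.6 and 60.6. Each gene was represented by 1 probe set, and 13796 of 18193 genes passed a filter on low signal. Differences are the log2 of Eed-null over WT on log2(signal + 32), so that the changes of weakly detected genes are understated. They are given with the standard error of a limma fit over all 53 arrays and a p-value adjusted over all 13796 genes by the Benjamini-Hochberg method. A gene is called higher or lower where its adjusted p lies under 0.05 and the change is at least 2-fold. The number of arrays, above all the 2 of Eed-null cells, limits the precision.

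The arrays of day 2 and day 6 fell into 2 sets, which differed in how probe sets for a single gene read relative to each other. Both Eed-null arrays and WT replicates 3 to 5 belonged to the second set, and WT replicates 1 and 2 to the first. The SD of the log2 difference over genes was 0.21 between the 2 Eed-null arrays. It was 0.23 to 0.24 between WT arrays of the same set, 0.43 to 0.51 between WT arrays of different sets and 0.44 to 0.59 between Eed-null and WT arrays. The difference against WT replicates 3 to 5 alone is called the same-set value below.

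Between Eed-null and WT cells 418 genes were called (3.03% of those tested), 253 higher (1.83%) and 165 lower (1.2%). The median change over all genes tested was -0.0007. The 2 Eed-null arrays lay outside the range of the 5 WT arrays in 416 of the 418 (3.02%), and in 4881 of all genes tested (35.4%). Against WT replicates 3 to 5 alone 475 genes were called (3.44%), and 347 were called in both (2.52%), 224 higher and 123 lower. A fit that takes the array set as a block called 396 genes. The genes with the largest changes described next were called, with non-overlapping arrays, against all WT arrays and against replicates 3 to 5.

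Esx1 rose most and Aplnr fell most among these genes. Esx1 encodes an X-linked homeobox protein of the placenta, and Aplnr the apelin receptor of early mesoderm. The signal of Esx1 was 738 and 876 in Eed-null cells, against 58.5, 61.4, 45.9, 55.9 and 30.3 in WT cells (log2 difference 3.36 ± 0.17, adjusted p = 4.26e-19). The signal of Aplnr was 16.5 and 10.5 in Eed-null cells, against 852, 667, 735, 962 and 1376 in WT cells (log2 difference -4.34 ± 0.18, adjusted p = 9.75e-23). In both genes every Eed-null array was far from every WT array, and the WT arrays spread less than the genotypes differed. In bulk RNA fewer cells of a type and less RNA per cell cannot be told apart.

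**Figure D1:**
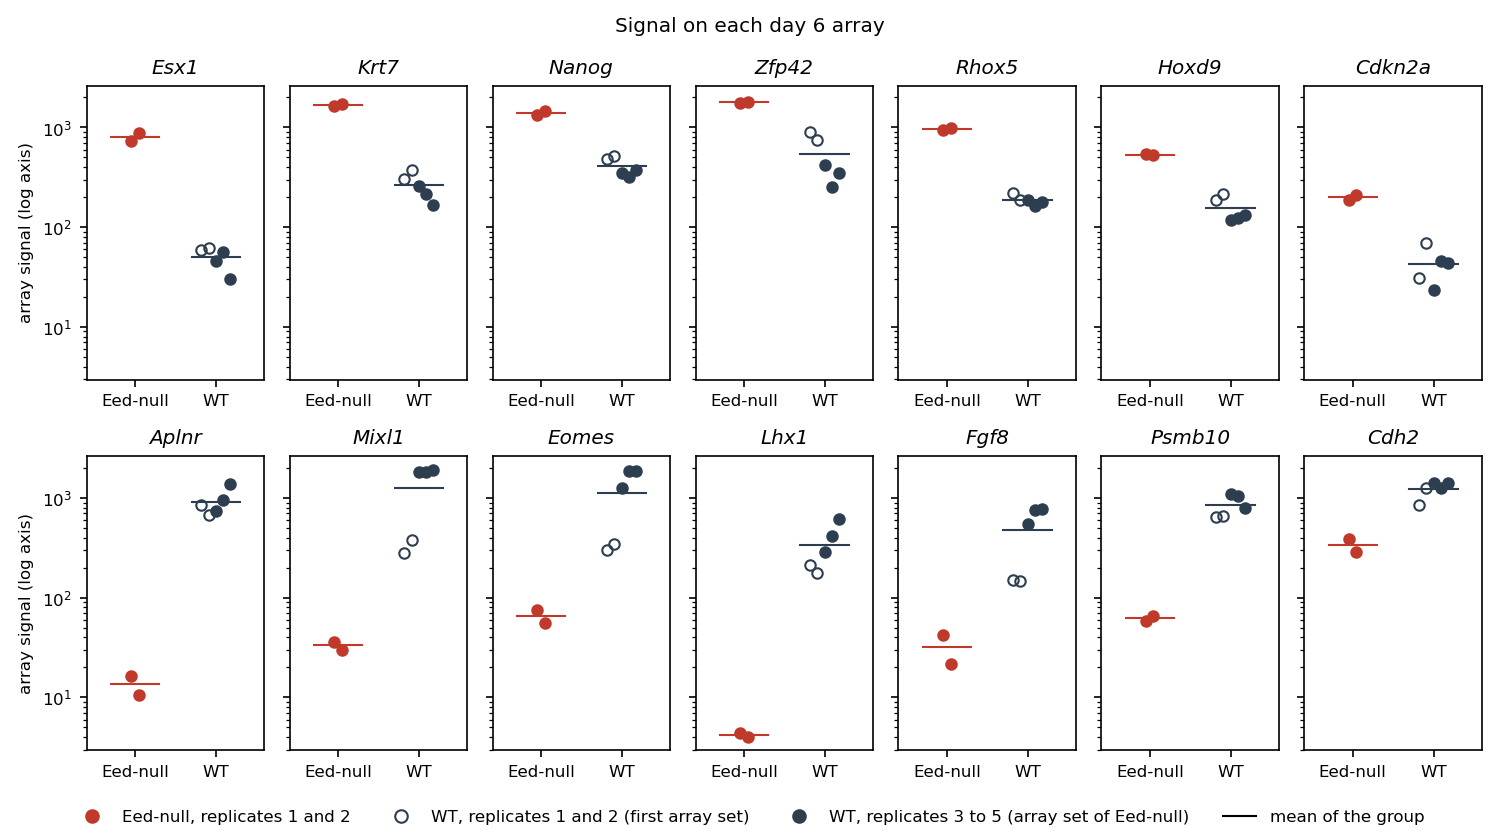
Array signal (log axis) of 14 genes on each day 6 array, with Eed-null arrays in red and WT arrays in dark blue, open for WT replicates 1 and 2 and filled for replicates 3 to 5, and lines at the group means. The 2 Eed-null arrays lie above all 5 WT arrays in the upper row and below all 5 in the lower row, while Mixl1, Eomes and Fgf8 are lower in the open WT points than in the filled ones.

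Promoter sequences of 4 genes with large changes are shown because PRC2 is known for CpG-rich promoters. They are the 250 bases before the transcription start in RefSeq (GRCm38.p6), in the direction of the gene, for Esx1 (chrX:137120327-137120576, minus strand), Mylpf (chr7:127211358-127211607, plus strand), Igfbp3 (chr11:7213924-7214173, minus strand) and Lhx1 (chr11:84525535-84525784, minus strand). Capitals mark every CG, which reads the same on both strands.
Esx1: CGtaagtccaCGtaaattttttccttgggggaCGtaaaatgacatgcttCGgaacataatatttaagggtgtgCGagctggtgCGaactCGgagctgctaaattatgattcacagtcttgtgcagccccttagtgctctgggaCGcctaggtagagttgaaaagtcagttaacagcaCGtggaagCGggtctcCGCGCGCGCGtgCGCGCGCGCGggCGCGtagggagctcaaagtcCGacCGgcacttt
Mylpf: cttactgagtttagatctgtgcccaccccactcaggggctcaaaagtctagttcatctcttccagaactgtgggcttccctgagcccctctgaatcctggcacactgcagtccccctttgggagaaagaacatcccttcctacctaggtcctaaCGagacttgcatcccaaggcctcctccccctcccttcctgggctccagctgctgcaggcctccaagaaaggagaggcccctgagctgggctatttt
Igfbp3: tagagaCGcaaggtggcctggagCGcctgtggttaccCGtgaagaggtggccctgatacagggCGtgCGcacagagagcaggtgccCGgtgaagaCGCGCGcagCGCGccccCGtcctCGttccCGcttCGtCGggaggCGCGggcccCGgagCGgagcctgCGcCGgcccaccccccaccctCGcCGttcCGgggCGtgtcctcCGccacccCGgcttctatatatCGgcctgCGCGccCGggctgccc
Lhx1: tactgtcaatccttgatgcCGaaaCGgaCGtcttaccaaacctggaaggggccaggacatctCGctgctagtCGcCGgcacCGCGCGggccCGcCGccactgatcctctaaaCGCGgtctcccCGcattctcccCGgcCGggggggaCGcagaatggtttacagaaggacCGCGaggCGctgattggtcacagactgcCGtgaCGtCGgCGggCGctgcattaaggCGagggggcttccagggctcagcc
They are the 2 largest rises and, among the largest falls, the first 2 with a promoter in the table. The windows hold 24 CG in Esx1, 1 in Mylpf, 32 in Igfbp3 and 26 in Lhx1. Over the 11065 tested genes with a promoter in the table (80.2%) the median was 15, the lower quartile 8 and the upper quartile 22, and 1.51% held none. The Mylpf window was thus below the lower quartile and the other 3 were above the upper quartile. These 4 windows do not stand for the called genes as a group. Promoters were at hand for 79.4% of the genes called higher and 67.9% of those called lower. The median was 15 CG in the genes called higher and 10.5 in those called lower. At least 10 CG were held by 69.2% and 57.1% of them, against 70.2% of all tested genes with a promoter. Coverage was lower for the genes called lower, and the difference was not tested.

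Genes of the naive pluripotent state were higher in Eed-null cells. Of 28 members tested, 17 were called higher and none lower, with a median change of 1.19 (same-set 17 higher, 1 lower and 1.35). Nanog, a homeobox factor of the pluripotency network, had a signal of 1334 and 1464 in Eed-null cells, against 483, 523, 352, 316 and 376 in WT cells (log2 difference 1.72 ± 0.31, adjusted p = 9.40e-05). Zfp42, a zinc finger protein used as a marker of undifferentiated ES cells, had 1779 and 1802 in Eed-null cells, against 906, 754, 425, 255 and 352 in WT cells (log2 difference 1.82 ± 0.39, adjusted p = 9.11e-04). No Eed-null array overlapped a WT array in either gene, and within WT cells the first set was the higher one.

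Nr0b1, an orphan nuclear receptor of ES cells, rose most in this list, with 321 and 261 in Eed-null cells, against 49.0, 35.9, 29.1, 21.4 and 16.5 in WT cells (log2 difference 2.39 ± 0.41, adjusted p = 3.55e-05). Sox2, the partner of Pou5f1 in the pluripotency network, rose by 1.66 ± 0.37 on the log2 scale (adjusted p = 0.00124), and both Eed-null signals (1446 and 1454) exceeded the highest WT signal of 761. Dppa5a, an RNA-binding protein of undifferentiated cells, rose by 1.81, Tfcp2l1, a transcription factor of the naive state, by 1.80, and Tcl1, a co-activator of the kinase Akt, by 1.78. The other called members were Dppa3, Nr5a2, Jam2, Mybl2, Fgf4, Klf2, Utf1, Dppa2, Gdf3 and Fbxo15, with changes of 1.00 to 1.71. Tfcp2l1 was called on its brightest probe set, and the mean over its probe sets changed by 0.51 (adjusted p = 0.00704). With such means Fgf4 (0.82) and Gdf3 (0.86) were not called either. Gdf3 was also not called in the same set (0.96, adjusted p = 0.000706), or without Eed-null replicate 2 (1.05, adjusted p = 0.0645).

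Pou5f1, the central pluripotency factor known as Oct4, had 1964 and 1847 in Eed-null cells, against 921, 721, 1334, 1441 and 1251 in WT cells (log2 difference 0.78 ± 0.26, adjusted p = 0.0388). The change was below 2-fold, and the same-set value was 0.50 (adjusted p = 0.201). Esrrb (-0.03), Sall4 (0.01), Eras (-0.06), Tbx3 (0.13), Klf4 (0.53) and Tdgf1 (-1.03) were other members of the list that were not called. In the same set Klf4 was called higher and Tdgf1, the Nodal co-receptor, lower. The summed signal of 7 ES cell markers was 14725 and 15088 in Eed-null cells, against 4755 to 7632 in WT cells. ES cell markers were thus still measured at day 6 in both genotypes.

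Genes of the primitive streak and early mesoderm were lower in Eed-null cells. Of 28 members tested, 13 were called lower and none higher, with a median change of -0.79 (same-set 12 lower, none higher and -0.78). The streak forms at gastrulation, and cells leave it to form mesoderm and endoderm. Mixl1, a homeobox factor of the streak, had 36.2 and 30.1 in Eed-null cells, against 283, 382, 1814, 1842 and 1914 in WT cells (log2 difference -3.90 ± 0.40, adjusted p = 1.11e-09). Eomes, a T-box factor needed for definitive endoderm and mesoderm and for trophoblast, had 75.2 and 56.3 in Eed-null cells, against 303, 345, 1273, 1854 and 1855 in WT cells (log2 difference -3.21 ± 0.41, adjusted p = 2.02e-07). In both genes the 3 WT arrays of the second set were higher than the 2 of the first, and all 5 were above the Eed-null arrays. The same-set values were -4.86 for Mixl1 and -4.10 for Eomes.

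Lhx1, a LIM homeobox factor of the streak and head organizer, had 4.4 and 4 in Eed-null cells, against 211, 178, 286, 415 and 612 in WT cells (log2 difference -3.24 ± 0.23, adjusted p = 7.86e-14). A second probe set of Lhx1 averaged 10.6 in Eed-null cells and 81.6 in WT cells. Fgf8, a growth factor that moves cells out of the streak, had 42.6 and 21.6 in Eed-null cells, against 152, 149, 554, 752 and 780.4 in WT cells (log2 difference -2.72 ± 0.42, adjusted p = 6.19e-06). Neither gene showed overlap between genotypes. Sp5, a target of Wnt signalling, fell by 2.32, the receptor Kdr of early blood and vessel precursors by 1.90, and Gsc, a homeobox factor of the organizer, by 1.83. Foxf1, Hoxb1, Evx1, Mesp1 and Snai1 fell by 1.05 to 1.56.

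Several members of the mesoderm list were close to 0, among them Wnt3 (-0.14), Tbx6 (0.04), Bmp4 (0.14) and Pdgfra (-0.03), and none of these 4 was called. The summed signal of 5 measured mesoderm markers was 465.5 and 461 in Eed-null cells, against 1912 to 5024 in WT cells. The streak gene T, also in this marker set and in the list, was not measured under that symbol. The call of Hoxb1 was lost in the same set (-0.98, adjusted p = 0.000117), and that of Snai1 without any 1 of 4 arrays, with values of -0.97 without WT replicate 3, -0.92 without replicate 4, -0.89 without replicate 5 and -0.95 without Eed-null replicate 2 (adjusted p = 0.0725).

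**Figure D2:**
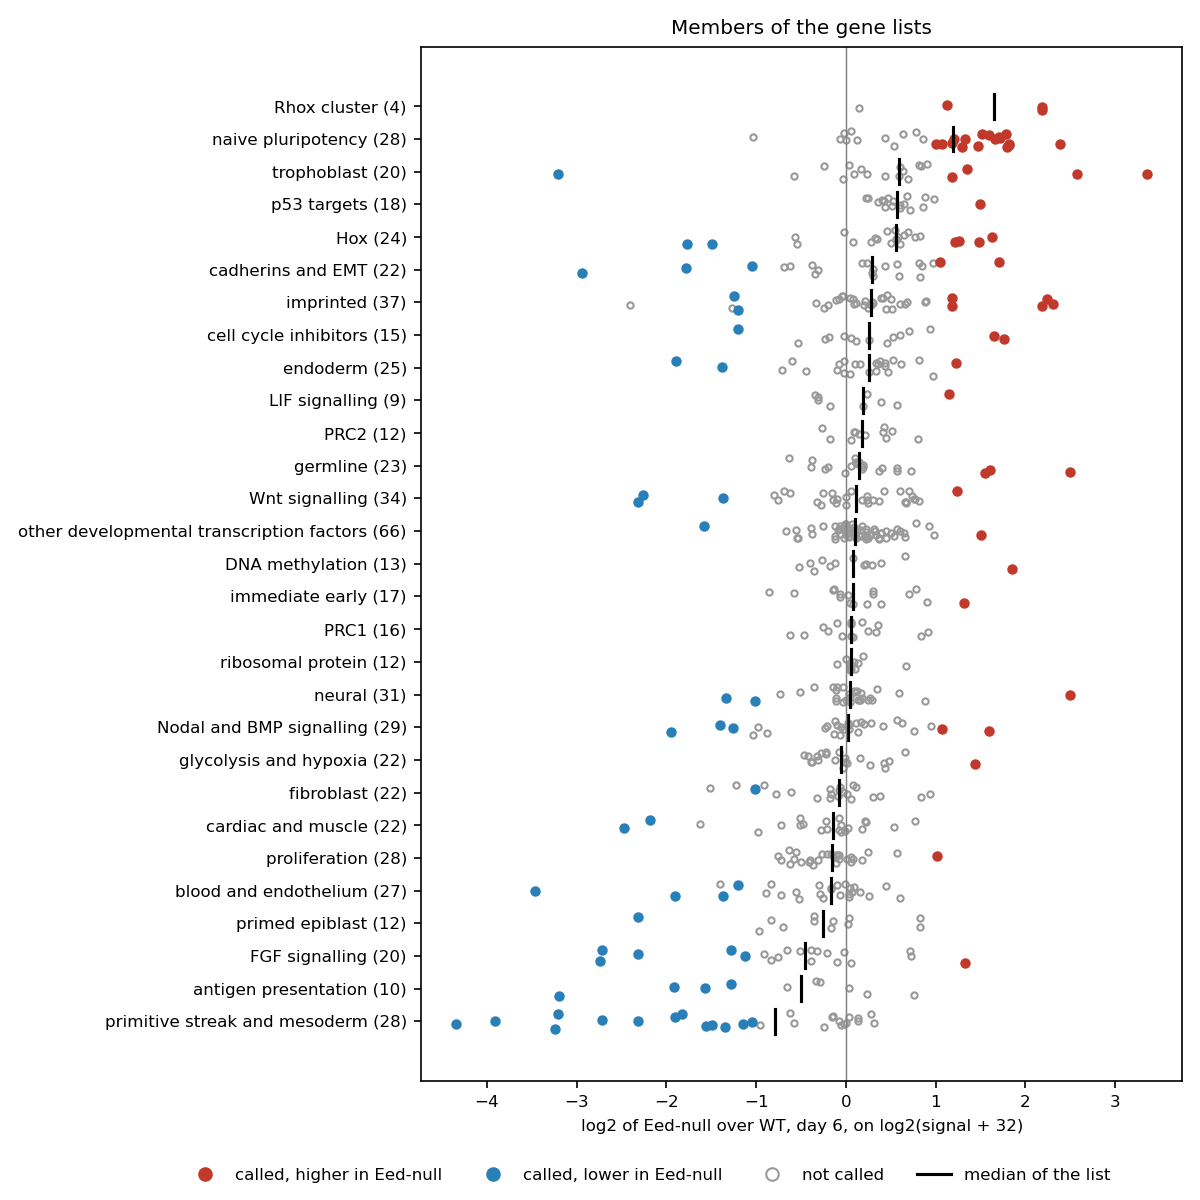
Change of each tested member of 29 gene lists, as the log2 of Eed-null over WT at day 6 on log2(signal + 32), with the number of members tested in brackets, called genes filled and list medians as black bars. The naive pluripotency list has 17 red points and a median of 1.19, and the primitive streak and mesoderm list has 13 blue points and a median of -0.79.

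Fibroblast growth factor (FGF) genes were among the lower ones. Of 20 members tested, 5 were called lower and 1 higher, with a median of -0.45. Dusp4, a phosphatase of the MAP kinase pathway downstream of FGF, had 205 and 171 in Eed-null cells, against 722, 909, 2219, 2110.4 and 1953 in WT cells (log2 difference -2.74 ± 0.52, adjusted p = 1.90e-04). Fgf5, a ligand found in primed epiblast, had 34.4 and 39.6 in Eed-null cells, against 186, 199, 236, 464 and 684 in WT cells (log2 difference -2.32 ± 0.52, adjusted p = 0.00139). All Eed-null arrays were below all WT arrays in both genes, and in Dusp4 the first WT set was the lower one. Fgf8, Il17rd (fell by 1.28), an inhibitor of FGF signalling, and Fgfr1 (fell by 1.13), a receptor, were the other called members on the lower side. Fgf4, the ligand of the inner cell mass, rose (1.32 ± 0.24). With the mean of its probe sets Fgfr1 changed by -0.71 and was not called. Fgf5 was the only called member among 12 genes of the primed epiblast, whose median was -0.26, and Pim2, a serine/threonine kinase (-0.97), was called lower there as well in the same set (-1.41).

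In the Wnt pathway 3 of 34 genes tested were called lower and 1 higher, with a median of 0.12. Frzb, a secreted Wnt antagonist, fell by 2.26 and Rspo3, a secreted enhancer of Wnt signalling, by 1.37, besides Sp5. Dkk2, another secreted modulator, rose by 1.24, at a low level of 76.8 and 76.3 in Eed-null cells, against 14.7, 29.7, 10.3, 6.8 and 11.6 in WT cells. In the Nodal and BMP pathway 3 of 29 were called lower and 2 higher, with a median of 0.02. Bmper, a secreted BMP-binding protein, fell by 1.94, the antagonist Fst by 1.40 and Foxh1, a nuclear partner of the Nodal signal, by 1.26, while Id4, a target of BMP, rose by 1.59 and Gdf3 by 1.07. With the mean over probe sets Rspo3 changed by -0.69 and was not called. Some of these calls did not survive the loss of an Eed-null array, which leaves 1 array in that group whose spread is assumed to equal that of the others. Without replicate 2, the adjusted p was 0.131 for Frzb, 0.293 for Fst and 0.06 for Foxh1, and without replicate 1 it was 0.0519 for Frzb and 0.161 for Fst. The call of Fst was also lost without WT replicate 2, 3, 4 or 5, with values of -1.41, -1.30, -1.39 and -1.31.

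Cell adhesion genes moved in both directions. Of 22 genes of cadherins and of the epithelial to mesenchymal transition, 3 were called lower and 2 higher, with a median of 0.29. Cdh2, the N-cadherin gene, which marks cells that leave an epithelium, had 384 and 285 in Eed-null cells, against 853, 1250.2, 1398, 1259.9 and 1410.2 in WT cells (log2 difference -1.78 ± 0.32, adjusted p = 6.38e-05). Cdh11, a cadherin of mesenchyme, had 66.3 and 67.4 in Eed-null cells, against 974, 865, 567.5, 629.7 and 679.7 in WT cells (log2 difference -2.94 ± 0.72, adjusted p = 0.00353). Neither overlapped between the genotypes. Snai1, a repressor of epithelial genes, was the third lower gene. Cldn4 and Cldn3, claudins of epithelial tight junctions, were the higher ones (1.71 and 1.04). The call of Cdh11 was lost without Eed-null replicate 1 (-2.94, adjusted p = 0.0558) or replicate 2 (-2.95, adjusted p = 0.0619).

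Claudin calls depended on more arrays. Cldn4 had 2543 and 1575 in Eed-null cells, against 274, 378, 863, 973 and 796 in WT cells, and its call was lost without Eed-null replicate 1 (1.37) or 2 (2.05) and without WT replicate 1 (1.45) or 2 (1.56). Cldn3 had 1079.5 and 1182 in Eed-null cells, against 370.4, 391, 596, 945 and 513 in WT cells. Its call was lost in the same set (0.74) and without Eed-null replicate 2 (0.98) or WT replicate 1 (0.92) or 2 (0.94). The highest WT array of Cldn3 lay close to the lower Eed-null array on this probe set, the brightest of the gene. The other 3 probe sets of Cldn3 changed by 1.97, 2.09 and 2.49 on the log2 scale.

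Trophoblast genes were part of the rises. Of 20 genes tested, 4 were called higher and 1, Eomes, lower, and the median was 0.60 (same-set 6 higher, 1 lower and 0.46). Krt7, a keratin of simple epithelia and trophoblast, had 1634 and 1708 in Eed-null cells, against 301, 372, 257, 215 and 165 in WT cells (log2 difference 2.58 ± 0.27, adjusted p = 2.57e-09). Tfap2a, a transcription factor of trophoblast and neural crest, had 315 and 258 in Eed-null cells, against 82.7, 130.2, 86.9, 71.4 and 97.6 in WT cells (log2 difference 1.35 ± 0.16, adjusted p = 3.21e-08). Ascl2, an imprinted helix-loop-helix factor of the placenta, rose by 1.19 ± 0.16 from a low level in WT cells, where its highest signal was 40.9. The Eed-null arrays lay above the WT arrays in all 3 genes.

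Cdx2 (-0.25) and Hand1 (-0.58), regulators of trophoblast, were not called, and Gata3 (0.90) and Gata2 (0.60) did not reach 2-fold. Elf5 and Prl3d1 were not tested. The summed signal of 5 measured trophoblast markers was 2589 and 2815 in Eed-null cells, against 445 to 596 in WT cells. Esx1 and Krt7 were the called ones among them. They averaged 807 and 1671 in Eed-null cells, against 50.4 and 262 in WT cells, so the sum mostly repeats these 2 genes.

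The other genes with the largest rises have varied known roles. Mylpf, a myosin light chain of fast skeletal muscle, had 652 and 508 in Eed-null cells, against 60.6, 38.5, 28.3, 32.4 and 27.1 in WT cells (log2 difference 3.15 ± 0.42, adjusted p = 3.77e-07). Parm1, a mucin-like membrane protein, had 969 and 1009 in Eed-null cells, against 162, 195, 102, 97.2 and 92.1 in WT cells (log2 difference 2.70 ± 0.20, adjusted p = 2.23e-13). Zic1, a zinc finger factor of the neural plate, had 308 and 303 in Eed-null cells, against 29.8, 47.2, 29.7, 16.7 and 20.3 in WT cells (log2 difference 2.50 ± 0.29, adjusted p = 3.08e-08). All 3 genes were far above every WT array in both Eed-null arrays, and in WT cells Mylpf and Zic1 lay around or below the array median.

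Tinagl1 (2.56) and Npnt (2.30), proteins of the extracellular matrix, rose as well. So did Fabp3 (2.46), the fatty acid binding protein of heart, Wfdc2 (2.28), a secreted protein of epithelia, Klhl13 (2.37), an adaptor of a ubiquitin ligase, and Gm6958 (2.58), a locus without an assigned function here. Fabp3 had 3960.4 and 4084 in Eed-null cells, against 666, 682, 770.4, 745 and 674 in WT cells, with the 5 WT arrays within a narrow range across both sets.

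Among genes of the germline 3 of 23 tested were called higher and none lower, with a median of 0.14. Tex19.1, a gene of germ cells and placenta, had 1136 and 1015 in Eed-null cells, against 229, 194, 220.2, 107 and 108 in WT cells (log2 difference 2.50 ± 0.34, adjusted p = 6.53e-07). Morc1 and Tex15, both needed in male germ cells to silence transposons, rose by 1.61 and 1.55. Ddx4 (0.10), Dazl (0.56) and Sycp3 (0.13), well-known germ cell genes, were not called. Of the 4 tested genes of the Rhox homeobox cluster on the X chromosome, Rhox5, Rhox6 and Rhox9 were called higher. Rhox5 had 938 and 991 in Eed-null cells, against 219, 188, 188, 163 and 180.5 in WT cells (log2 difference 2.19 ± 0.55, adjusted p = 0.00423). The Rhox genes have similar sequences, so their probe sets may share signal. Calls were lost for Morc1 without Eed-null replicate 1 (adjusted p = 0.07), and for the 3 Rhox genes without Eed-null replicate 1 or 2 (log2 differences of 1.08 to 2.25, adjusted p of 0.0558 to 0.188).

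Imprinted genes, which are read from 1 parental copy, were called higher in 5 of 37 and lower in 2, with a median of 0.28. Plagl1, a zinc finger gene expressed from the paternal copy, had 4342 and 4364 in Eed-null cells, against 1469.7, 1483, 746, 513 and 539 in WT cells (log2 difference 2.30 ± 0.60, adjusted p = 0.00647). Peg10, a gene derived from a retrotransposon and needed in placenta, had 1738 and 2419 in Eed-null cells, against 132, 147, 763, 994 and 667 in WT cells (log2 difference 2.24 ± 0.61, adjusted p = 0.0087). Dlk1, a membrane protein of the Notch ligand family, had 1268 and 1366 in Eed-null cells, against 799, 452, 177, 129.5 and 141 in WT cells (log2 difference 2.18 ± 0.54, adjusted p = 0.00397). The 2 WT sets differed in each, with the first set higher in Plagl1 and Dlk1 and lower in Peg10, and the same-set values were 2.81, 1.33 and 2.91.

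Ascl2 and Mest were the other higher imprinted genes. Cdkn1c, a cell cycle inhibitor expressed from the maternal copy, had 543 and 567 in Eed-null cells, against 1219.6, 1321, 1132, 1525 and 1427 in WT cells (log2 difference -1.20 ± 0.36, adjusted p = 0.0185), and H13, a signal peptide peptidase, had 536 and 446 in Eed-null cells, against 1052, 1088, 1207, 1354 and 1335 in WT cells (log2 difference -1.24 ± 0.26, adjusted p = 6.86e-04). H13 was called on 1 of its probe sets, and the mean of all of them changed by -0.24 (adjusted p = 0.0248). Without Eed-null replicate 1 the adjusted p was 0.0766 for Plagl1, 0.0555 for Peg10, 0.0516 for Dlk1 and 0.148 for Cdkn1c. Without replicate 2 it was 0.0866, 0.154, 0.0744 and 0.137 in the same order. Either omission left 2 imprinted genes called higher and 1 lower. Against the CJ7 arrays alone Peg10 was not called (adjusted p = 0.187).

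Hox genes, which are known targets of PRC2, moved in both directions. Of 24 tested, 4 were called higher and 2 lower, with a median of 0.55 (same-set 6 higher, 1 lower and 0.48), and the other 15 of the 39 in the list were not tested. Hoxd9 had 542 and 525 in Eed-null cells, against 188, 213, 118, 124 and 133 in WT cells (log2 difference 1.62 ± 0.21, adjusted p = 3.37e-07). Hoxc13 had 135 and 138 in Eed-null cells, against 25.6, 28.1, 32.2, 32.4 and 24.0 in WT cells (log2 difference 1.48 ± 0.17, adjusted p = 1.29e-08). Hoxd13 (1.26) and Hoxa10 (1.21) were the other higher ones, and in all 4 the Eed-null arrays exceeded every WT array. With the mean over probe sets Hoxa10 changed by 0.49 and Hoxd13 by 0.99, which left 2 Hox genes called higher. These 4 lie in the middle and at the posterior end of their clusters.

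Hoxb2 and Hoxb1, at the anterior end of the B cluster, were lower. Hoxb2 had 20.5 and 28.9 in Eed-null cells, against 382, 293, 179.5, 60.3 and 69.7 in WT cells (log2 difference -1.77 ± 0.30, adjusted p = 2.80e-05). The WT signals of Hoxb2 spread widely, and the J1 arrays were the higher ones. Against the CJ7 arrays alone the change of Hoxb2 was -0.78 (adjusted p = 0.0168) and that of Hoxb1 -0.60 (adjusted p = 0.0141), both under 2-fold, and in a fit of only the arrays compared the adjusted p was 0.0869 and 0.0997. Of 66 other developmental transcription factors tested, Barx1 was called higher and Msx1 lower, both homeobox factors, with a median of 0.10. Barx1 had 239 and 225 in Eed-null cells, against 67.7, 60.9, 56.6, 70.9 and 52.1 in WT cells (log2 difference 1.5 ± 0.10, adjusted p = 6.32e-15). Msx1 had 271 and 308 in Eed-null cells, against 909, 604, 831, 1188 and 1279 in WT cells (log2 difference -1.58 ± 0.21, adjusted p = 2.52e-07). In both genes all arrays of a genotype lay on the same side of the other.

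Cell cycle inhibitors included genes that are known PRC2 targets. Cdkn2a, which encodes p16 and p19Arf, had 187 and 210.3 in Eed-null cells, against 30.9, 69.2, 23.5, 46.3 and 43.6 in WT cells (log2 difference 1.65 ± 0.26, adjusted p = 6.58e-06). Its neighbour Cdkn2b, which encodes p15, had 944 and 859 in Eed-null cells, against 174, 455, 268, 185 and 205 in WT cells (log2 difference 1.77 ± 0.31, adjusted p = 5.67e-05). Neither overlapped between genotypes. Together with Cdkn1c, which fell, these were the called genes among 15 tested, whose median was 0.26. Of 18 tested targets of p53, Pmaip1, a pro-apoptotic gene, was the only one called, as higher (1.49 ± 0.24). All 18 had a change above 0, with a median of 0.56, against -0.0007 over all genes tested. The shift of these 18 as a group was not tested. Among 28 proliferation genes Ccnd2, a D-type cyclin, was called higher (1.02 ± 0.25) and the median was -0.15. Its call was lost in the same set (0.68) and without WT replicate 1 (0.86), WT replicate 2 (0.92) or Eed-null replicate 2 (0.91).

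Some genes of the immunoproteasome and of antigen presentation were lower. Of 10 tested, 3 had a change above 0, 4 were called lower and none higher, with a median of -0.50 (same-set 4 lower, none higher and -0.68). Psmb10, an inducible subunit of the immunoproteasome, had 58.8 and 66.1 in Eed-null cells, against 648, 662, 1105, 1047 and 798 in WT cells (log2 difference -3.19 ± 0.26, adjusted p = 3.52e-12). Psmb8, another such subunit, had 58.1 and 59.3 in Eed-null cells, against 268, 291, 400.2, 289 and 314 in WT cells (log2 difference -1.91 ± 0.24, adjusted p = 7.67e-08). Irf1, a transcription factor of the interferon response, fell by 1.57 and Tapbp, a chaperone of peptide loading, by 1.28. In all 4 genes the Eed-null arrays lay below the WT arrays. Psmb10 lies on chromosome 8, as do Dusp4 and Cdh11, and the tested genes of that chromosome had a median change of -0.16. Psmb9 (-0.29) and B2m (0.23) were not called, and Tap1 (0.76) did not reach 2-fold. Gbp2 and Gbp2b, guanylate-binding proteins induced by interferon, fell by 2.48 and 2.54, and as close relatives they may share signal.

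Igfbp3, a binding protein of insulin-like growth factors, had 144 and 119.8 in Eed-null cells, against 799, 928, 2834, 2518 and 2666 in WT cells (log2 difference -3.41 ± 0.53, adjusted p = 7.53e-06). Cyp26a1, the enzyme that degrades retinoic acid, had 115 and 81.7 in Eed-null cells, against 405, 389, 993, 1447 and 1564 in WT cells (log2 difference -2.72 ± 0.28, adjusted p = 2.14e-09). Both were lower in the first WT set than in the second, and lower still in Eed-null cells. Actc1, the cardiac actin gene, had 87.8 and 64.9 in Eed-null cells, against 264, 803, 1271, 479.9 and 432 in WT cells (log2 difference -2.47 ± 0.49, adjusted p = 2.94e-04), with a wide spread in WT cells. Actc1 and Cnn1, a calponin of smooth muscle that fell by 2.19, were the called genes among 22 of heart and muscle, whose median was -0.15. Without Eed-null replicate 2 the change of Cnn1 was -1.84 (adjusted p = 0.201).

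Blood and endothelial genes were called lower in 4 of 27 and higher in none, with a median of -0.16, and the WT arrays disagreed about them. Hbb-bh1, an embryonic globin, had 7.9 and 16.5 in Eed-null cells, against 4662, 4059, 113, 41.3 and 98.3 in WT cells (log2 difference -3.46 ± 0.76, adjusted p = 0.00113). WT replicates 1 and 2 had signals of 4059 or more and the other 3 WT arrays at most 113, and the same-set value was -1.34 (adjusted p = 2.78e-07). The call of Hbb-bh1 was lost against the CJ7 arrays alone (-1.15, adjusted p = 0.327) and in a fit of only the arrays compared (adjusted p = 0.234). Hbb-y, another embryonic globin, was called against all WT arrays (-1.36 ± 0.47) and not in the same set (-0.06, adjusted p = 0.78). The call of Hbb-y was also lost without WT replicate 1 (-0.83), WT replicate 2 (-0.92), Eed-null replicate 1 (-1.43) or Eed-null replicate 2 (-1.30). Without WT replicate 3, 4 or 5 the list had 6 called lower, and without Eed-null replicate 2 it had 2. Lmo2, a regulator of blood formation, fell by 1.21 against all WT arrays, and was not called in the same set (-0.86) or without Eed-null replicate 2 (-0.94). The 5 blood markers summed to 245 and 273 in Eed-null cells, against 7258 and 5562 in WT replicates 1 and 2 and 277 to 357 in WT replicates 3 to 5.

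Endoderm genes showed no common direction. Of 25 tested, Dab2, an adaptor of visceral endoderm, was called higher (1.23 ± 0.28; 0.68 and not called with the mean over probe sets), and Cxcr4, a chemokine receptor of definitive endoderm and mesoderm, and Sox17, a transcription factor of endoderm, were called lower. The median was 0.26. Cxcr4 had 55.4 and 44.9 in Eed-null cells, against 235, 197, 237, 332 and 398 in WT cells (log2 difference -1.89 ± 0.23, adjusted p = 4.30e-08). Sox17 had 120.1 and 125 in Eed-null cells, against 628, 419, 222, 276 and 418 in WT cells (log2 difference -1.38 ± 0.47, adjusted p = 0.0388). Without Eed-null replicate 1 or 2 the adjusted p of Sox17 was 0.205 or 0.206, and without WT replicate 1, 2 or 5 the change was -1.20, -1.34 or -1.34 and was not called. Gata4 (-0.08), Gata6 (-0.44) and Foxa2 (0.97), regulators of endoderm, were not called.

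Neural genes had a median of 0.05 over 31 tested, with Zic1 called higher and Fabp7 and Stmn2 lower. Fabp7, the fatty acid binding protein of radial glia, had 5 and 16.6 in Eed-null cells, against 76.1, 66.0, 88.9, 75.9 and 68.5 in WT cells (log2 difference -1.33 ± 0.16, adjusted p = 6.47e-08), low signals in both genotypes. Stmn2, a protein of growing neurites, fell by 1.02, and its call was lost without Eed-null replicate 1 (-1.03) or 2 (adjusted p = 0.18) and without WT replicate 3 (-0.88), 4 (-0.90) or 5 (-0.90). The 4 measured neural markers summed to 238 and 184 in Eed-null cells, against 135 to 248 in WT cells, which overlapped.

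No gene of PRC2 (12 tested, median 0.18) or PRC1 (16 tested, median 0.06), the complex that binds the mark left by PRC2, was called. Eed itself had 1644 and 1341 in Eed-null cells, against 1212, 1307, 1049, 836 and 840.1 in WT cells (log2 difference 0.51 ± 0.18, adjusted p = 0.0417). Which part of Eed is altered was not known here, so this signal is no check of the label. Ezh2 had 654 and 602 in Eed-null cells, against 706, 704, 728, 845 and 851 in WT cells (log2 difference -0.27 ± 0.19, adjusted p = 0.364), and Suz12 (0.11 ± 0.25) and Ezh1 (0.14 ± 0.13) had adjusted p-values of 0.817 and 0.501. Among 13 DNA methylation genes Dnmt3l, a catalytically inactive relative of the de novo methyltransferases, was called higher, with 464 and 429 in Eed-null cells, against 98.3, 74.4, 139.6, 92.1 and 106 in WT cells (log2 difference 1.85 ± 0.33, adjusted p = 6.17e-05). In the same set, 2 PRC1 genes, Pcgf5 (1.18) and Bmi1 (1.17), were called higher.

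The remaining lists gave few calls. Jak1, a kinase of the LIF receptor, was called higher among 9 LIF pathway genes against all WT arrays (1.15 ± 0.26) and not in the same set (0.87). Ndrg1 among 22 genes of glycolysis and hypoxia (1.43 ± 0.48) and Fos among 17 immediate early genes (1.31 ± 0.29) were called higher, and the medians of these lists were -0.06 and 0.07. The call of Ndrg1 was lost without Eed-null replicate 1 (1.39) or 2 (1.48) and without WT replicate 3 (1.28) or 4 (1.35). None of 12 ribosomal protein genes was called, with a median of 0.06. Of 22 fibroblast genes Mmp2, a matrix metalloproteinase, was called lower, and not in the same set (-0.68) or without Eed-null replicate 1 (-0.93) or 2 (-1.11) or WT replicate 1 (-0.82) or 2 (-0.95). The 20 fibroblast markers summed to 5126 and 5426 in Eed-null cells, against 4999 to 6619 in WT cells, so the groups overlapped, and 64152 to 75243 in 2 arrays of embryonic fibroblasts.

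The time course showed how these differences stood on earlier days. The change with genotype at day 6 was tested against the change with genotype at day 0, as an interaction. It was called in 634 genes (4.6%), 309 more positive at day 6 (2.24%) and 325 more negative (2.36%). With arrays centred on their median the split was 500 against 225. The day 0 and day 6 comparisons use different arrays, and all day 0 arrays were assigned to the first set. WT cells of the line E14tg1 were present at day 0 and absent at day 6. Called genes numbered 1097 with WT arrays of the line J1 alone on both days, and 682 with those of CJ7 alone. With WT replicates 3 to 5 at day 6, a choice made after the data were seen, the count was 724.

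The interaction was called more positive in 17 of 28 naive pluripotency genes and more negative in none, and more negative in 16 of 28 streak and mesoderm genes and more positive in none. It was also more negative in 8 of 22 fibroblast genes and more positive in none, and 11 of the 22 were called higher in Eed-null cells at day 0. The part of feeder cells in the interactions was not tested. Against WT cells of the same day, 303 genes (2.2%) were called at day 0 and 140 (1.01%) at day 2. At day 0 the Eed-null cells had 1 naive gene called higher and 2 lower (1.5% and 0.696% of all genes tested), and at day 2 they had 3 higher and none lower (0.464% and 0.551%). In the streak and mesoderm list 2 genes were called higher and none lower at day 0, and none in either direction at day 2. The naive list had a median change of -0.05 at day 0, of 0.37 at day 2 and of 1.19 at day 6, and the mesoderm list of 0.31, 0.06 and -0.79. WT cells of day 6 against WT cells of day 0, a comparison that shares arrays with those above, had 1398 genes called (10.1%), 800 higher (5.8%) and 598 lower (4.33%), with 24 of 28 naive genes lower and 20 of 28 streak and mesoderm genes higher.

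Nr0b1 was lower in Eed-null arrays than in 5 of the 7 WT arrays at day 0, with 810.2, 946, 998, 1153 and 1109 in Eed-null cells, against 744, 656, 1370.1, 1819, 1863, 1555 and 1579.9 in WT cells. At day 2 it had 649 and 715 in Eed-null cells, against 180.4, 130.4, 176 and 156 in WT cells. Its interaction was 2.74 ± 0.50 (adjusted p = 1.09e-04). The signal of Nr0b1 declined with time in both genotypes, and the Eed-null arrays were the higher ones from day 2 on. Aplnr had 11.5, 8.6, 7.5, 10.2 and 15.7 in Eed-null cells at day 0, against 11.4, 11.6, 13.9, 11.6, 11.7, 16.3 and 9.5 in WT cells, and its interaction was -4.29 ± 0.22 (adjusted p = 4.07e-19). At day 2 Aplnr was at 18 or less in every array of both genotypes.

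Eomes had 351 and 393 in Eed-null cells at day 2, against 476, 502, 668 and 698 in WT cells. By day 6 it was at 75.2 or less in Eed-null cells, against 303 or more in WT cells, and its interaction was -3.48 ± 0.50 (adjusted p = 3.67e-06). Mixl1 had an interaction of -4.11 ± 0.48 (adjusted p = 7.89e-08). In contrast to these genes, Rhox5 and Tex19.1 were already called higher at day 0, with medians of 2994 and 2660 in Eed-null cells, against 1059 and 1130 in WT cells, although a WT array reached 2581 for Rhox5.

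Esx1 had a median of 111 in Eed-null cells at day 0, against 44.7 in WT cells, and of 84.2 at day 2, against 45.8. Its interaction was 2.54 ± 0.21 (adjusted p = 1.00e-11), and it averaged 807 in Eed-null cells at day 6, against 50.4 in WT cells. Cdh11 and Col1a1 had the interactions -4.54 ± 0.88 and -3.50 ± 0.92. Both are expressed in fibroblasts, and at day 0 the summed fibroblast markers ranged from 1567 to 17677 in Eed-null cells, against 1146 to 5197 in WT cells. Col1a1 had 788, 751, 518, 647 and 9 in the 5 Eed-null arrays of day 0.

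Among the interactions with the largest positive values, Lor, Dpys and Neurod1 were called lower in Eed-null cells at day 0 and were not called at day 6. Dpys, an enzyme of pyrimidine breakdown, was at 17.1 or less in Eed-null cells at day 0, against 171, 155, 652, 409.8, 352, 326 and 348 in WT cells, and at day 6 it had 21.1 and 20.3 in Eed-null cells, against 26.2, 18.1, 17.5, 20.3 and 20.4 in WT cells. Lor, a protein of the skin barrier, was at 9.8 or less in Eed-null cells at day 0, against 115 or more in WT cells. At day 6 neither gene was called (adjusted p = 0.986 and 0.498).

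**Figure D3:**
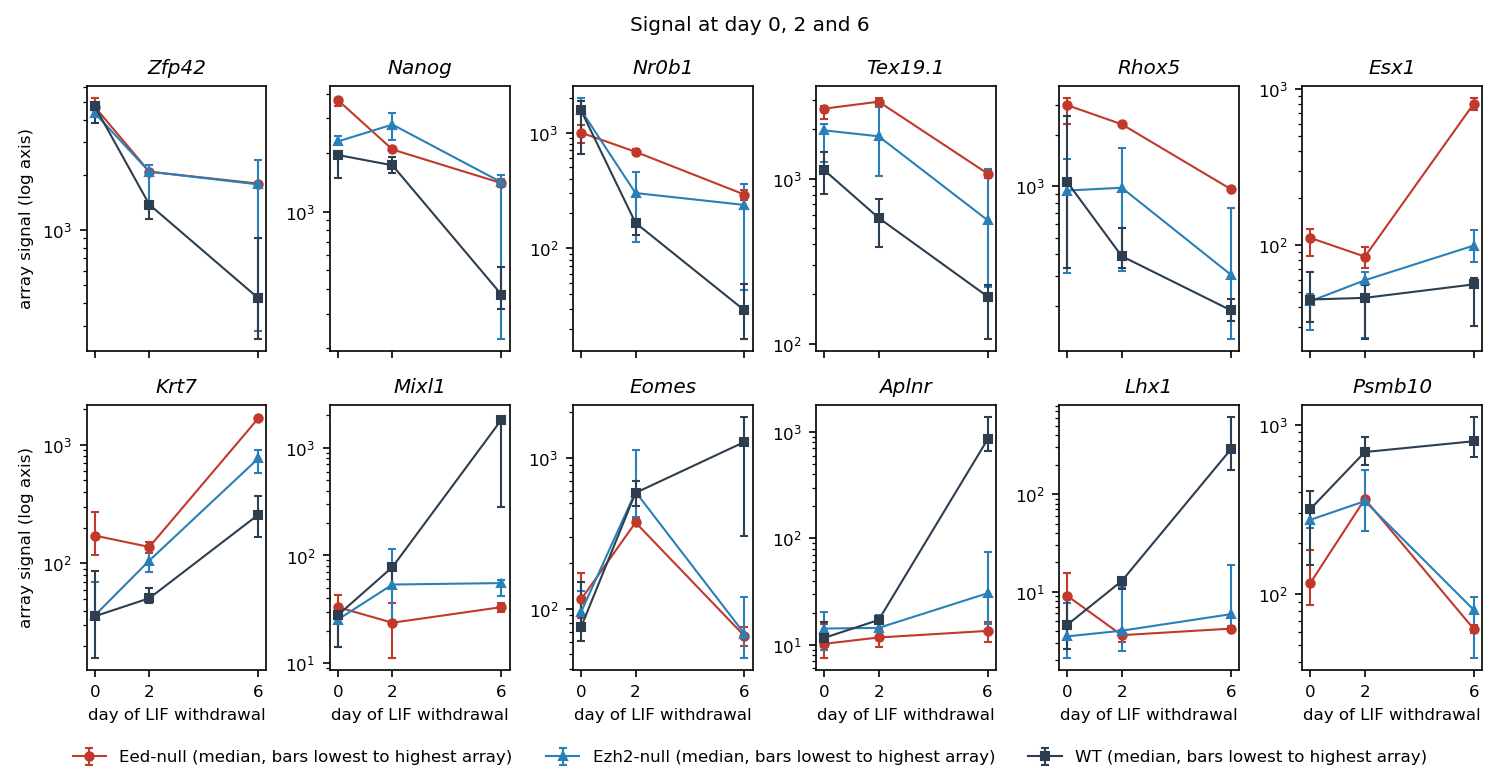
Array signal (log axis, separate for each gene) of 12 genes at day 0, 2 and 6 of LIF withdrawal in Eed-null, Ezh2-null and WT cells, as the median with bars from the lowest to the highest array. Zfp42, Nanog and Nr0b1 decline less in Eed-null than in WT cells, Mixl1, Aplnr and Lhx1 stay low in Eed-null cells at day 6, and Esx1 and Krt7 reach 807 and 1671 there.

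Ezh2-null cells of the same day lack an enzyme of PRC2 rather than its Eed subunit. Against the same WT arrays, Ezh2-null cells had 408 genes called (2.96%). The naive list had 14 of 28 called higher and a median of 0.95 there, the mesoderm list 13 of 28 called lower and a median of -0.85, and the antigen presentation list 5 of 10 called lower and a median of -0.99. Since the WT arrays are shared, the 2 mutants were compared directly. That comparison called 98 genes (0.71%), 43 higher in Eed-null cells (0.312%) and 55 lower (0.399%). Against Ezh2-null replicates 3 to 5, those of the second array set, it called 235 (1.7%), 150 higher and 85 lower, and without Eed-null replicate 2 it called 60, 35 higher and 25 lower, so that more genes were higher than lower in both.

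In the direct comparison 1 of 28 naive genes was called higher in Eed-null cells, and none of 28 streak and mesoderm genes was called in either direction. The medians were 0.25 and 0.01. The 7 ES cell markers summed to 14725 and 15088 in Eed-null cells, against 5288 in Ezh2-null replicate 3 and 14106 to 16938 in the other 4 Ezh2-null arrays, so that replicate 3 stood apart. Without it the direct comparison called 110 genes.

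Esx1 had 738 and 876 in Eed-null cells, against 124, 96.8, 108, 77.4 and 99.2 in Ezh2-null cells (log2 difference 2.66 ± 0.17, adjusted p = 5.20e-15). Wfdc2 had 2102 and 2092 in Eed-null cells, against 415, 536, 538, 569 and 483 in Ezh2-null cells (log2 difference 1.99 ± 0.21, adjusted p = 9.48e-09). Every Eed-null array was above every Ezh2-null array in both genes. Gm6958 (3.16 ± 0.33), Peg10 (2.36 ± 0.61) and Ezh2 itself (2.41 ± 0.19) were the other genes with the largest positive differences. Ezh2 had 654 and 602 in Eed-null cells, against 152, 152, 52.6, 57.0 and 82.2 in Ezh2-null cells.

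Fxyd6, a regulator of the sodium pump, had 212 and 166 in Eed-null cells, against 674, 824, 1566, 1523 and 1615 in Ezh2-null cells (log2 difference -2.45 ± 0.27, adjusted p = 1.25e-08). H13 had 536 and 446 in Eed-null cells, against 1952, 1971, 3007, 2049.5 and 2128 in Ezh2-null cells (log2 difference -2.09 ± 0.26, adjusted p = 4.40e-07). Both genes were lower in every Eed-null array. Actg2, an actin of smooth muscle (-2.21 ± 0.45), Col3a1, a fibrillar collagen (-2.03 ± 0.44), and Smim10l1 (-2.04 ± 0.22) were the other 3 with the largest negative differences. In Actg2 the Eed-null arrays overlapped an Ezh2-null array of the first set. Smim10l1 was read from its brightest probe set, which changed by -1.80 against WT cells. With the mean over its probe sets that change was -0.50 and was not called. The fibroblast markers, which include Col3a1, summed to 5126 and 5426 in Eed-null cells, against 8453 to 10672 in Ezh2-null cells, and their part in these differences was not tested.

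**Figure D4:**
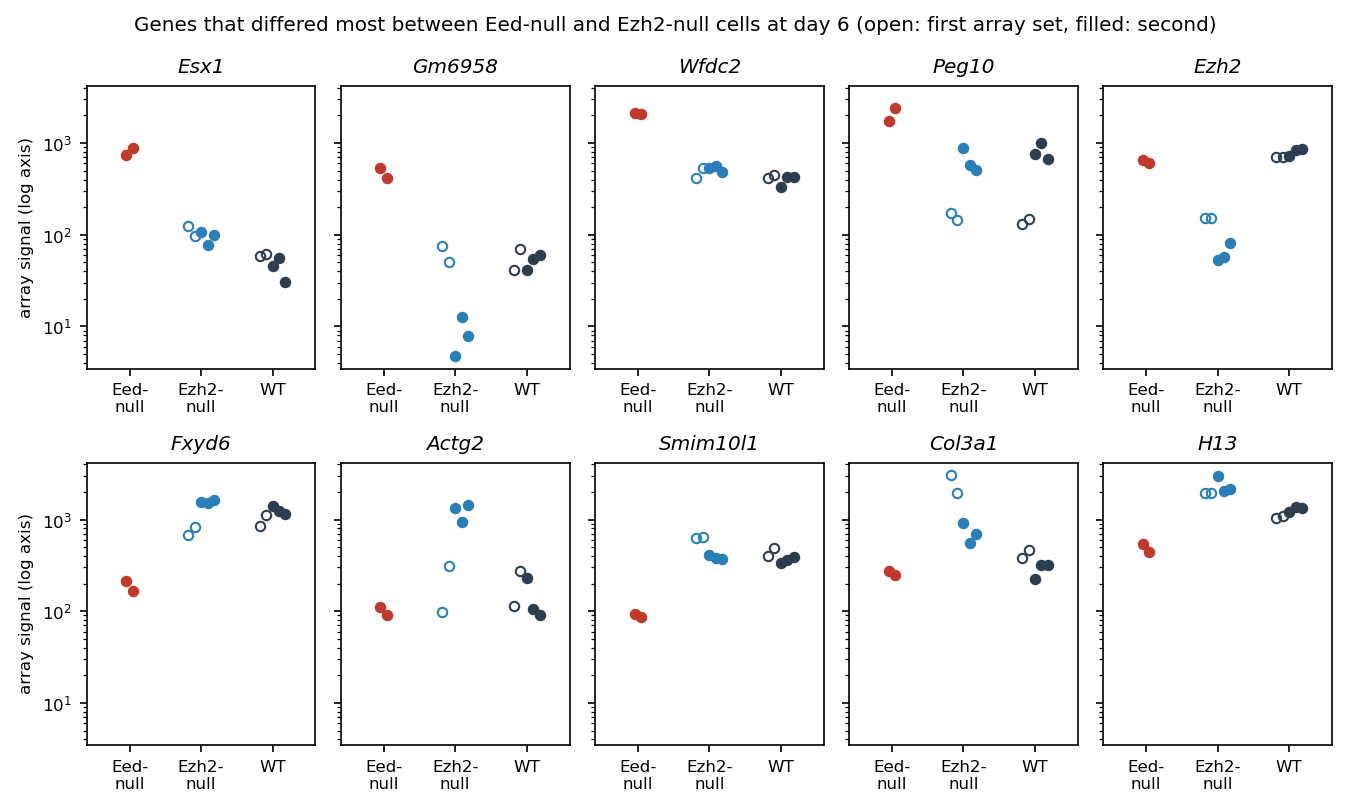
Array signal (log axis) of the 10 genes with the largest called differences between Eed-null and Ezh2-null cells at day 6, with WT cells for comparison, 1 point per array and open points for the first array set. Esx1, Gm6958 and Wfdc2 are high in the 2 Eed-null arrays, while Fxyd6, Smim10l1 and H13 are low in them, and Actg2 and Col3a1 differ between the Ezh2-null arrays of the 2 sets.

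Called genes lay on every chromosome examined, and the share called lower was highest on chromosome 8. On this chromosome 31 of 721 tested genes were called lower (4.3%), against 1.02% of the genes elsewhere, and 6 were called higher (0.832%). It holds Psmb10, Cdh11, Dusp4, Foxf1, Fgfr1 and Mmp2, all among the lower genes above, and Zfp42, Klf2 and Tex15 among the higher ones. The median change over its tested genes was -0.16, whereas the other autosomes and the X chromosome lay between -0.08 and 0.06.

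Over the 373 genes of chromosome 8 with a mean log2(signal + 32) above 8 in the ES cell arrays of day 6, the median difference from the WT mean was -0.29 and -0.30 in the 2 Eed-null arrays. It was 0.03, 0.05, -0.08, -0.02 and 0.02 in the 5 WT arrays, and -0.40 to -0.16 in the Ezh2-null arrays. No WT array of day 6 reached the level of an Eed-null array. At day 2 the same measure, against WT cells of that day, was -0.32 and -0.30 in Eed-null cells, against -0.02 to 0.02 in WT cells. At day 0 the groups overlapped, with -0.25 to -0.17 in Eed-null cells, against -0.11, -0.29 and -0.17 in WT replicates 1 to 3 and 0.10 to 0.20 in WT replicates 4 to 7. The part of this shift in the calls on chromosome 8 was not tested. Outside chromosome 8, 381 genes were called, 247 higher and 134 lower. The X chromosome held 21 genes called higher of 464 tested (4.53%) and 11 called lower (2.37%), with a median of -0.01.

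**Figure D5:**
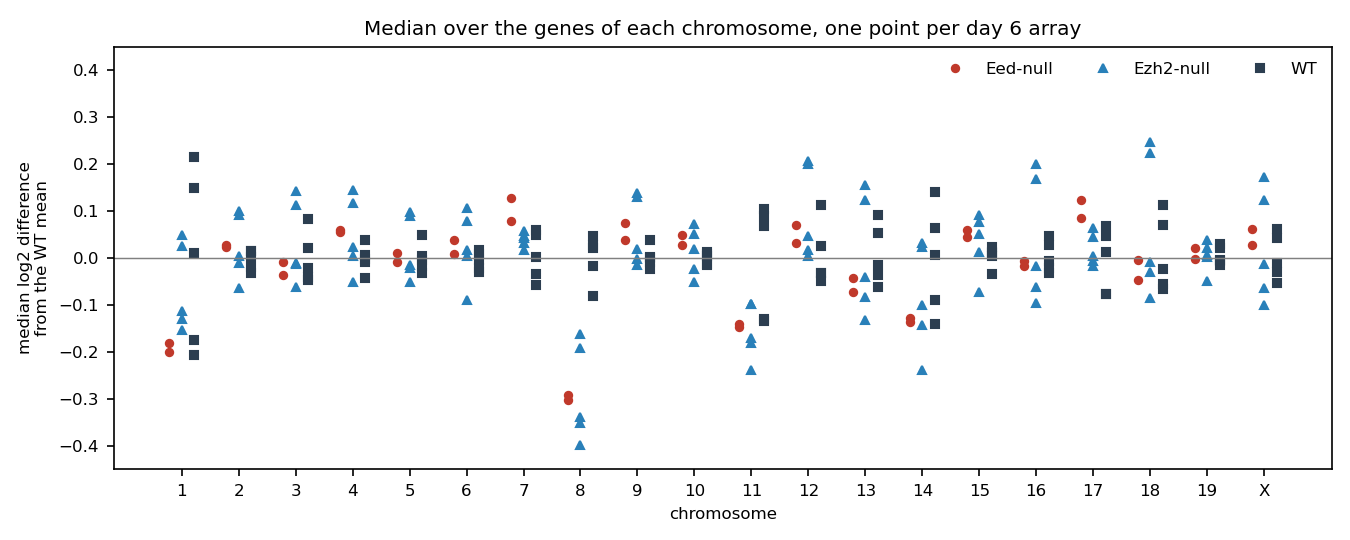
Median log2 difference from the mean of the WT arrays over the genes of each chromosome with a mean log2(signal + 32) above 8, 1 point per day 6 array, for Eed-null, Ezh2-null and WT cells. On chromosome 8 the 2 Eed-null arrays are at -0.29 and -0.30 and all Ezh2-null arrays are at or below -0.16, whereas the WT arrays lie between -0.08 and 0.05.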

How the data were processed

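Labelled RNA of mouse ES cells and derived cells was hybridised to arrays with 45037 probe sets, and the authors deposited 1 intensity per probe set and array on a linear scale (0.4 to 33986). The summary and scaling steps before deposit are not stated in the labels or the value table. Gene symbols came from the platform annotation: 34945 probe sets had 1 symbol, 932 several and 9160 none, and only the first were used. Of these, 34741 symbols matched the RefSeq gene table and 0 changed.

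Groups followed the sample titles. Values were turned into log2(signal + 32) without renormalisation, since the array medians differed by 0.20 on the log2 scale, under the limit of 0.3. Each gene was read from its brightest probe set by mean log2 value, and genes above the array median in at least 2 arrays were tested. limma 3.58.1 in R 4.3.3 fitted 15 group means to the 53 arrays (38 residual degrees of freedom, 4.7 prior degrees of freedom), with Benjamini-Hochberg adjustment over 13796 genes. The array set was assigned by genotype and replicate number. The Eed-null arrays of day 2 and day 6, and the other arrays of these days from replicate 3 on, formed the second set of 14 arrays. A score was computed beside it from 3196 pairs in which both probe sets name a single gene. The score was 17.5 or higher in the second set, against -6.72 or lower in the other arrays of these days. All arrays outside the second set were assigned to the first, among them the Eed-null arrays of day 0, with scores of -5.50 to 8.76.

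Data were simulated for the Eed-null against WT comparison at day 6, with 50 changed genes of each size among 13796. The calls recovered 22 at 2-fold, 49 at 3-fold, 49 at 4-fold and 50 at 8-fold, with 2 unchanged genes called. At 2-fold 41 of the 50 passed the adjusted p, and the minimum fold of a call lies at the same 2-fold. The simulated noise was independent, without array sets or cell lines, so it gives no rate of false calls for the real arrays. Genes were named by rule: the 14 largest rises and falls called in both WT comparisons without overlap, up to 6 called members of each list, Eed, Ezh2, Ezh1, Suz12, Pou5f1, Nanog and Sox2, and the 5 largest changes in each direction of the other comparisons. Further called members of a list, members given as not called and genes that gained a call in the same set were named after their values were seen. The groups and the lists were chosen with earlier results of these data known. Promoters came from RefSeq (GRCm38.p6).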

Additional observations from a re-analysis of the deposited data

Results flagged for a closer look

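Some values stood out by fixed rules, and no explanation of them was weighed. In the WT group of day 6 replicate 3 was below the other 4 for Wfdc2 (332.7, with the next lowest at 411.3), and replicate 1 was below the other 4 for Cdh2 (852.7, with the next lowest at 1250.2). In the Ezh2-null group replicate 3 was above the others for H13 (3006.6, with the next highest at 2127.6). Chance alone marks about 1 in 20 such groups. The rule was applied to the WT group of each of 112 named genes, and to the Ezh2-null group of those named from the direct comparison. Several marks are thus expected by chance.

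The effect of the Eed-null genotype differed between day 6 and day 0 by the interaction test, with adjusted p-values from limma. The largest positive values were Lor 3.10 (adjusted p = 4.03e-06), Dpys 2.95 (3.22e-10), Tle5, a co-repressor, 2.79 (9.68e-06), Nr0b1 2.74 (0.000109) and Neurod1, a neuronal factor, 2.65 (0.000129). The largest negative values were Cdh11 -4.54 (0.000269), Aplnr -4.29 (4.07e-19), Mixl1 -4.11 (7.89e-08), Col1a1 -3.50 (0.00595) and Eomes -3.48 (3.67e-06). Tle5 had 231, 294, 317, 278 and 159 in Eed-null cells at day 0, against 616, 641, 456, 316, 304, 293 and 331 in WT cells, and 564 and 716 in Eed-null cells, against 88.7, 75.1, 112, 140.4 and 197 in WT cells at day 6. The groups overlapped at day 0 and did not at day 6.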

How the results depend on the processing

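The comparison of Eed-null with WT cells rests on 2 Eed-null arrays, and low signals limit what the scale can show. The 418 calls became 200 with a larger pseudocount, 2090 with no minimum fold and 1266 with a minimum of 1.5-fold, and ranged over 330 to 440 when 1 array was left out. The 634 calls of the interaction with day 0 became 279, 2466 and 1789 under the same 3 settings and 1097 with J1 arrays alone, and ranged over 494 to 670. The 98 calls between Eed-null and Ezh2-null cells became 43, 588 and 393 under the same settings, 159 with a pseudocount of 8, 63 with the mean of all probe sets, 183 with array weights, 25 with a fit of only the arrays compared, 51 with the line as a random block and 235 within the second array set, and ranged over 60 to 144. The cause of these shifts was not tested, except that a looser fold or a larger pseudocount changes the threshold by construction. With the replicate number as a block the counts were 1193 for Eed-null against WT and 712 for Eed-null against Ezh2-null. The shared numbers 1 and 2 join arrays of different sets. The deviations of same-numbered Eed-null and WT arrays from their group means correlated at 0.02 and -0.17. Of only 2 Eed-null arrays, each deviates as the mirror image of the other. These values therefore cannot decide whether the numbers pair the arrays.

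Of 94 named genes called between Eed-null and WT cells, 45 were called under all 23 alternatives. Over all named genes and alternatives 2359 of 2569 values stayed called or stayed not called, 200 lost the call and 9 gained it. The last 1 reversed: Hbb-y changed by 0.0274 against CJ7 arrays alone. A change of direction was counted only for the 94 called genes. Only the interaction within the second array set was added after the data were seen.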
